A study of Mus musculus with 74 samples.

Results

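The genes described here are 32 genes of sugar breakdown and of the response to low oxygen, taken by symbol from the 49912 genes of the deposited count table. They comprise the enzymes of glycolysis and their isoforms, 5 carriers for glucose, fructose and lactate, and Hif1a with a set of genes that its protein is known to switch on. All 32 symbols were found. The symbols Pgm1 and Pgm2 are used as the table has them: its Pgm1 (ENSMUSG00000029171.12) bears the name Pgm2 in the GENCODE M21 annotation, and its Pgm2 (ENSMUSG00000025791.18) the name Pgm1.

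The study fed wild-type (WT), Trem2 heterozygous (HET) and Trem2 knockout (KO) mice chow with 0.2% cuprizone, a copper chelator that kills oligodendrocytes and strips myelin, or control chow, for 5 or 12 weeks. Trem2 is a lipid-sensing receptor of microglia. Whole brains were dissociated, and flow sorting parted the viable cells into those with Cd11b (microglia in what follows) and those without (the nonmicroglia fraction). RNA of both was sequenced by a 3' tag method. Each fraction had 37 libraries from 37 animals in 12 groups of 3 animals, except 4 animals in both HET groups at 12 weeks and 2 animals in the WT control group at 12 weeks, with 1 male per group. Ages, the strain and the nature of the Trem2 allele were not given in the sources used here, and the HET and KO animals are whole-body carriers as far as the labels say. The Cd11b gate also takes neutrophils, monocytes and macrophages of the brain borders, and the other fraction is a mixture of all remaining viable cells.

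Glycolysis splits glucose into pyruvate in the cytosol, in steps run by hexokinase, glucose-6-phosphate isomerase, phosphofructokinase, aldolase, triosephosphate isomerase, glyceraldehyde-3-phosphate dehydrogenase, phosphoglycerate kinase, phosphoglycerate mutase, enolase and pyruvate kinase. Lactate dehydrogenase then turns pyruvate into lactate, which leaves the cell through monocarboxylate carriers. When oxygen is low, or when myeloid cells are stimulated, the hypoxia-inducible factor HIF-1 builds up and raises many of these enzymes, the glucose carrier Slc2a1, the growth factor Vegfa, the mitophagy protein Bnip3 and the prolyl hydroxylase Egln3, which in turn marks the factor for destruction. Stimulated macrophages and microglia are known for a shift toward glycolysis.

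Libraries held 1043961 to 3945694 counts. Levels are given as CPM, counts scaled to a library total of 1000000. In microglia Trem2 stood at 790.04 ± 192 CPM in WT (SD, n = 11), 577 ± 257 in HET (n = 14) and 166 ± 55.0 in KO (n = 12). The 5 microglia libraries of KO animal 945 (control, 5 weeks), HET animal 7674 and WT animal 9145 (control, 12 weeks) and KO animals 1748 and 981 (cuprizone, 12 weeks) stood apart from the others on the first principal component. The microglia markers took a smaller share of the cuprizone libraries. Their summed level was 31885 ± 2638 CPM on control chow (n = 9) and 22947 ± 3917 on cuprizone (n = 10) at 12 weeks, and 34607 ± 4758 and 28461 ± 6260 at 5 weeks (n = 9 each), for 10 of 10 markers, none of them at 0. The summed immediate-early and dissociation genes went from 30582 ± 5924 to 22974 ± 4460 CPM at 12 weeks. Neutrophil markers overlapped between the diets, at 115 to 3612 CPM on control chow and 103 to 6435 CPM on cuprizone at 12 weeks. Border macrophage markers (8 of 8, none at 0) were at 402 to 1162 CPM on control chow and 257 to 1062 CPM on cuprizone at 12 weeks, with means of 843 ± 269 and 542 ± 247. At 5 weeks their means were 1123 ± 239 and 791 ± 233. The markers of disease-associated microglia (10 of 10, none at 0) went from 4743 ± 543 to 26227 ± 11103 CPM at 12 weeks and from 4608 ± 657 to 13486 ± 4612 CPM at 5 weeks. RNA integrity numbers (RIN), given for some libraries, were 8.1 to 9.6 on control chow and 7.3 to 8.1 on cuprizone at 12 weeks in microglia (3 libraries each). At 5 weeks they were 8.7 to 9.7 (7 libraries) and 8.7 to 9.9 (8 libraries). The part of these shifts in the results below was not tested. In such bulk samples a change in the share of a cell type and a change of RNA within cells cannot be told apart.

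Of the 32 genes 19 had counts in every microglia library, and 11 had a median under 10 counts. Those 11 were Pfkp, Pfkm, Gapdh, Pgk1, Pgam1, Eno1, Eno2, Slc2a3, Adm, Egln3 and Pgm1. Gapdh, an enzyme that every cell uses, was listed at 0 in 14 of 37 microglia libraries and in 12 of 37 nonmicroglia libraries. The last 300 bases of its longest coding transcript match 238 other annotated genes, 230 of them pseudogenes, at 90% identity or more, and these matches cover 100% of that end. Pgk1 was at 0 in 16, Eno1 in 15 and Pgam1 in 31 of the 37 microglia libraries, so that the middle of the pathway was hardly measured in this table. The end of Eno1 is covered by 1 near copy over 99%, and those of Pgk1 and Pgam1 by none. How reads that match several genes were counted is not given, so low values of Gapdh and Eno1 may also be lost reads, which was not tested. All 32 genes passed the count filter in microglia and 30 passed it in the nonmicroglia fraction, where Hk3 and Pgam1 did not.

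Cuprizone raised a subset of these genes in microglia, and lowered 1. Averaged over the 3 genotypes, 9 of the 32 genes passed the test at 12 weeks (adjusted p under 0.05 in edgeR's quasi-likelihood test, adjusted over all 14087 genes tested), 8 higher and 1 lower with cuprizone, against 2.95% of all genes tested. The 8 were the enzymes Gpi1, Aldoa, Tpi1 and Pkm, the factor gene Hif1a, and Vegfa, Bnip3 and Egln3. The call of Egln3 is no independent support for a rise, for the reason given below. The gene that fell was Slc2a5, the fructose carrier GLUT5. At 5 weeks 5 passed, namely Pkm, Hif1a, Tpi1 and Gpi1 upward and Slc2a5 downward, against 1.6% of all genes. The median log2 fold change of the 32 genes was 0.51 at 12 weeks and 0.40 at 5 weeks, and that of all genes tested was 0.01 and 0.00. The 32 genes were chosen with earlier results of these data known, so these shares and medians are no independent test of the set. Leaving out WT control animal 1932 left 5 of the 9 calls at 12 weeks, without Aldoa, Tpi1, Vegfa and Bnip3. At 5 weeks 3 of the 5 calls were left without HET control animal 9546 or without HET cuprizone animal 1106. Without the 5 libraries that stood apart, 8 genes passed at 12 weeks, 7 of them among the 9, and the lost calls were Vegfa and Bnip3. With the genes that were at 0 in a whole group replaced by ratios of summed counts, the median of the 32 was 0.50 and 0.40. As a share of the library the 32 genes together overlapped between the diets: they took 0.282 to 0.431% of counts on control chow and 0.267 to 0.439% on cuprizone at 12 weeks.

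**Figure D1:**
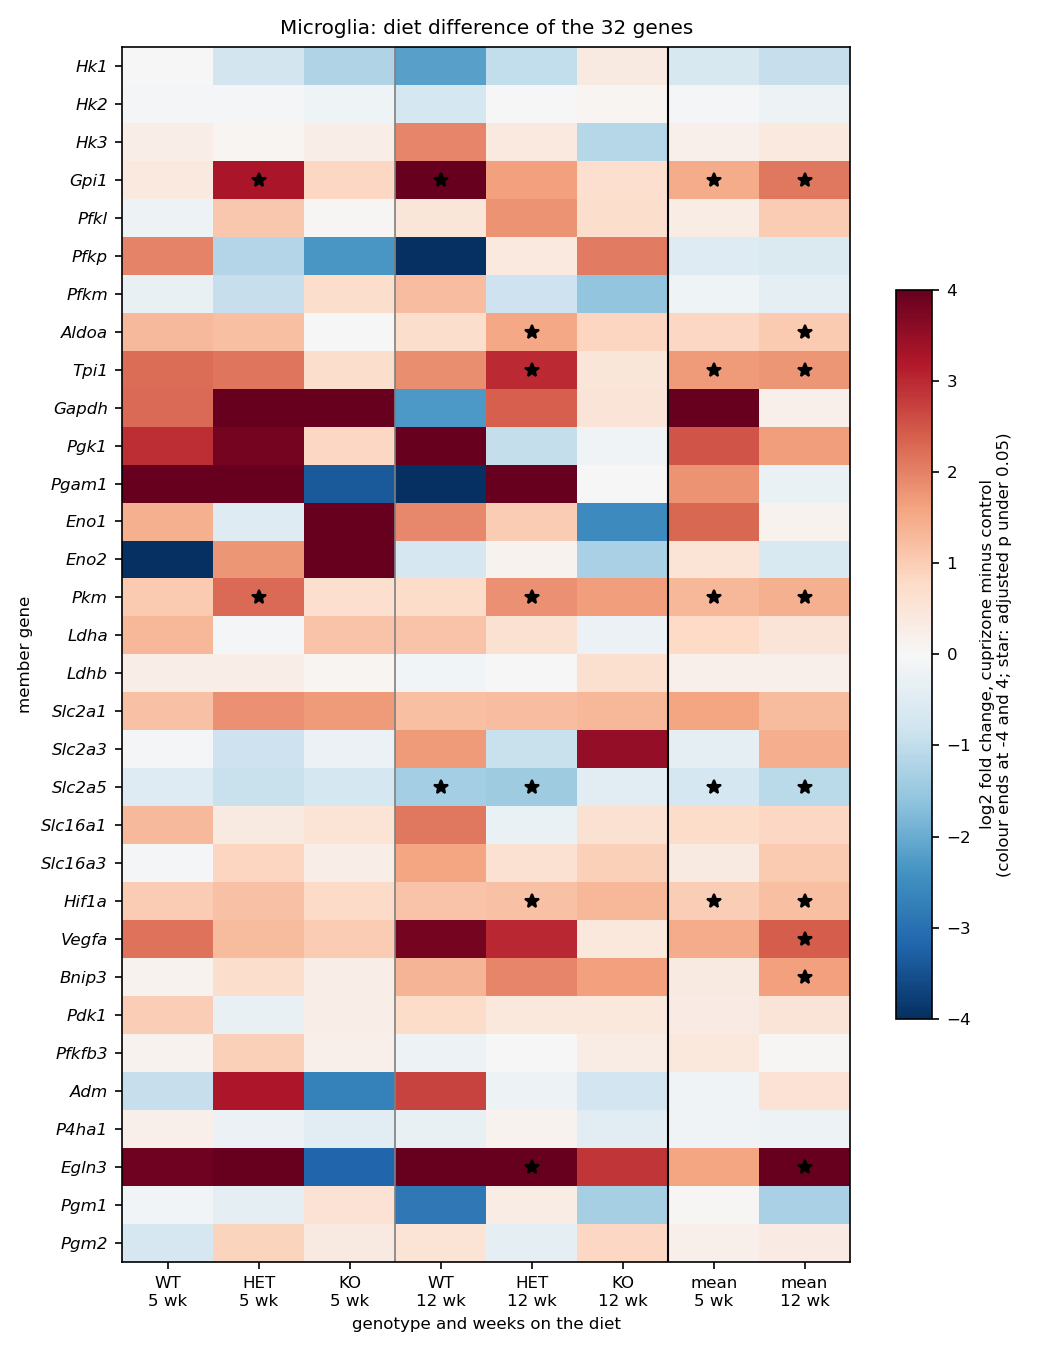
Log2 fold change of cuprizone minus control chow in microglia for each of the 32 genes (rows) within each genotype and week and averaged over genotypes (columns). Colour gives the size and ends at -4 and 4, and a star marks an adjusted p under 0.05. Slc2a5 is negative in every column, and Gpi1, Tpi1, Pkm and Hif1a are positive in every column. Deep colours of the 11 genes with a median under 10 counts (among them Pfkp, Gapdh, Pgk1, Pgam1, Eno1, Eno2, Adm and Egln3) rest on few counts.

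Of the sugar carriers Slc2a5 fell, and the others did not pass. Slc2a5 (ENSMUSG00000028976.10, chr4:150119283-150144169 on GRCm38) is the microglial sugar carrier of the set. At 12 weeks its level was 373 to 561 CPM, with a median of 521, in the 9 control libraries and 67.2 to 447 CPM, with a median of 194, in the 10 cuprizone libraries. All but 2 of the cuprizone libraries lay below every control library, and those 2 were KO animals. The difference was -1.07 ± 0.16 on the log2 scale (SE, adjusted p = 8.95e-06). At 5 weeks the control libraries ranged from 378 to 795 CPM (median 461) and the cuprizone libraries from 202 to 454 CPM (median 303). The groups overlapped there, and the difference was -0.70 ± 0.16 (adjusted p = 0.00946). Slc2a1, the glucose carrier GLUT1 and a known HIF-1 target, did not pass: it was 17.5 ± 20.3 CPM on control chow and 40.5 ± 26.9 CPM on cuprizone at 12 weeks, with differences of 1.26 ± 0.53 at 12 weeks and 1.57 ± 0.54 at 5 weeks (adjusted p = 0.227 and 0.148). Slc2a3, the carrier GLUT3, was at 0 in 11 of 37 libraries and differed by 1.44 ± 1.10 at 12 weeks.

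Hexokinase holds glucose in the cell by adding a phosphate. Hk2 did not pass at either time. It ranged from 988 to 2233 CPM in control and from 907 to 2601 CPM in cuprizone libraries at 12 weeks, and the 95% interval of its difference was -0.55 to 0.14 on the log2 scale. Hk1 was lower with cuprizone in the mean (26.8 ± 20.1 against 46.9 ± 14.7 CPM at 12 weeks) but did not pass, with a difference of -0.93 ± 0.34 (adjusted p = 0.135). Hk3, the hexokinase of myeloid cells, differed by 0.40 ± 0.57.

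Of the next enzymes Gpi1, Aldoa, Tpi1 and Pkm rose. Gpi1 (ENSMUSG00000036427.5, chr7:34201330-34230336), which turns glucose-6-phosphate into fructose-6-phosphate, was at 0.958 to 36.2 CPM (median 16.97) in control and 18.1 to 88.0 CPM (median 48.2) in cuprizone libraries at 12 weeks. Of the 10 cuprizone libraries 7 lay above every control library. The differences were 2.10 ± 0.43 at 12 weeks and 1.49 ± 0.39 at 5 weeks (adjusted p = 0.000877 and 0.0254). The call at 5 weeks was lost in 10 of 18 fits that left out 1 animal, with adjusted p up to 0.15. Stretches shared with 90 other genes cover 39% of the last 300 bases of its transcript, so that part of its tags may not be its own. Aldoa (ENSMUSG00000030695.16, chr7:126795234-126800751), the aldolase that splits the 6-carbon sugar, rose by 1.03 ± 0.27 at 12 weeks (adjusted p = 0.0184), from 17.9 to 112 CPM (median 52.0) to 34.4 to 164 CPM (median 136). The call was lost when KO 1744, WT 1932 or WT 9145 on control chow or KO 9542 on cuprizone was left out (adjusted p up to 0.0917). Its difference at 5 weeks was 0.83 ± 0.27 and did not pass (adjusted p = 0.104). Stretches shared with 6 pseudogenes cover 39% of the last 300 bases of the Aldoa transcript. Part of its tags may thus be lost or not its own, which was not tested.

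Tpi1 (ENSMUSG00000023456.14, chr6:124810586-124814296), which interconverts the triose phosphates made by aldolase, stood at 3.05 to 18.2 CPM (median 7.15) in control and 11.6 to 43.4 CPM (median 31.3) in cuprizone libraries at 12 weeks. In 9 of 10 cuprizone libraries it was above every control library, the exception being KO animal 1748. It rose by 1.77 ± 0.44 at 12 weeks and by 1.69 ± 0.42 at 5 weeks (adjusted p = 0.00963 and 0.0162). Neither call held without single animals: WT control animal 1932 at 12 weeks (adjusted p = 0.108), and HET control animal 9546 or HET cuprizone animal 1106 at 5 weeks (adjusted p up to 0.082). Pkm (ENSMUSG00000032294.17, chr9:59656368-59679375), the pyruvate kinase of the last step, separated the diets fully at 5 weeks. The 9 control libraries reached 95.9 CPM at most (lowest 20.04, median 72.8), and the 9 cuprizone libraries began at 107 CPM (median 137, highest 260.04). The differences were 1.32 ± 0.25 at 5 weeks and 1.41 ± 0.26 at 12 weeks (adjusted p = 0.000643 and 0.000217). At 12 weeks the ranges overlapped, at 12.4 to 125 against 68.8 to 276 CPM. The 3' tags do not tell the PKM1 and PKM2 splice forms apart.

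The remaining enzymes did not pass. Of the 3 phosphofructokinase genes only Pfkl held over 10 counts in the median library, and it differed by 1.004 ± 0.51 at 12 weeks (adjusted p = 0.356). Pfkfb3, whose product makes the activator of phosphofructokinase, was well measured at 292 to 667 CPM on cuprizone and 306 to 563 CPM on control chow at 12 weeks, and the 95% interval of its difference was -0.28 to 0.36. Gapdh differed by 4.27 ± 1.25 at 5 weeks, which missed the threshold (adjusted p = 0.0657) and rests on 13 counts in control and 126 in cuprizone libraries. At 12 weeks it differed by 0.21 ± 1.23. Ldha and Ldhb, the subunits of lactate dehydrogenase, differed by 0.50 ± 0.50 and 0.19 ± 0.24 at 12 weeks. The lactate carriers Slc16a3 (MCT4) and Slc16a1 (MCT1) differed by 1.05 ± 0.38 and 0.82 ± 0.72 (adjusted p = 0.134 and 0.704). Pdk1, a kinase that inhibits pyruvate dehydrogenase, differed by 0.52 ± 0.23 (adjusted p = 0.256).

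**Figure D2:**
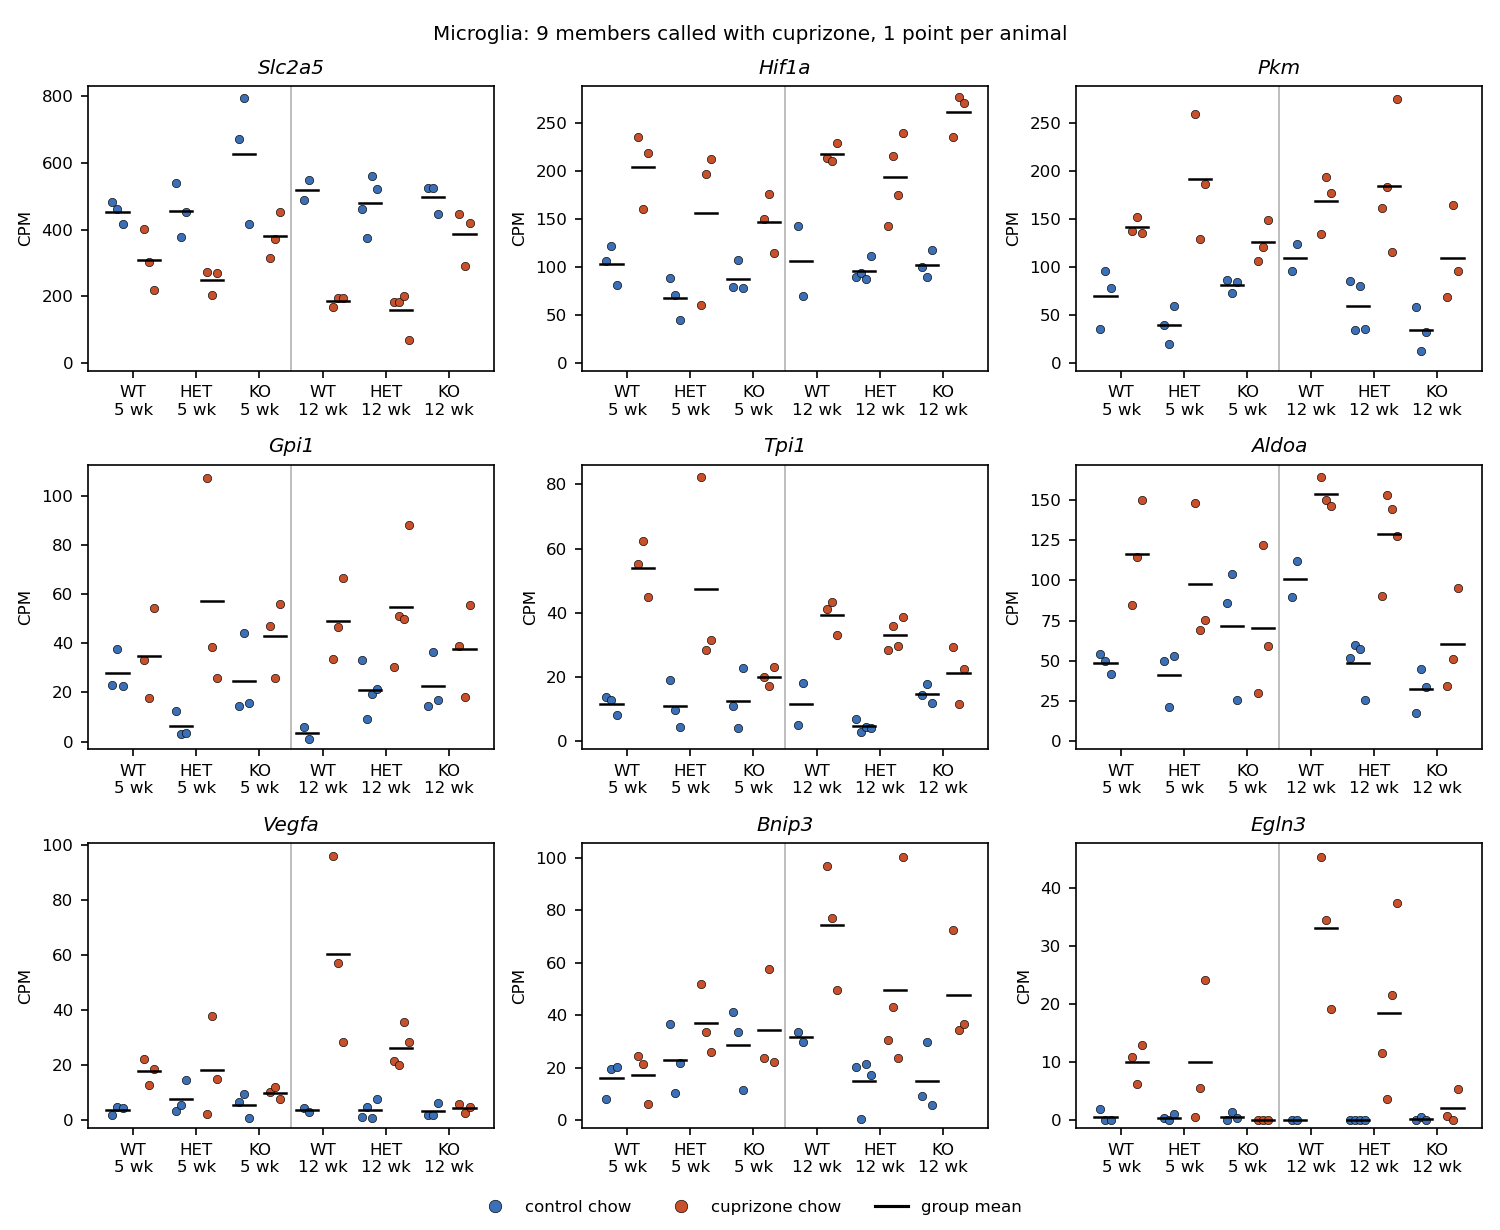
Level in CPM of the 9 genes that passed in microglia, with 1 point per animal, by genotype and weeks along the x axis and by diet in colour, and a bar at each group mean. Slc2a5 lies lower and Pkm and Hif1a higher on cuprizone in the mean of all 6 settings, while Vegfa and Egln3 on cuprizone lie lower in KO than in WT at both times.

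Hif1a (ENSMUSG00000021109.13, chr12:73901375-73947530) encodes the oxygen-regulated subunit of HIF-1, which is controlled mainly through the stability of the protein. Its transcript separated the diets fully at 12 weeks. The 9 control libraries ranged from 69.9 to 143 CPM (median 93.9, highest 142.6) and the 10 cuprizone libraries from 143.02 to 277 CPM (median 223). It rose by 1.21 ± 0.20 at 12 weeks (adjusted p = 3.66e-05) and by 0.99 ± 0.19 at 5 weeks (adjusted p = 0.0011), where 7 of 9 cuprizone libraries lay above every control library.

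Egln3 (ENSMUSG00000035105.5, chr12:54178981-54203860), the prolyl hydroxylase PHD3 and a classical HIF-1 target, was nearly absent from control microglia. At 12 weeks 8 of 9 control libraries had no count and the other had 1. The cuprizone libraries held 0 to 66 counts each, up to 45.4 CPM, and 284 in sum. The fitted difference of 6.77 ± 1.36 (adjusted p = 0.000977) depends on the prior count, because 2 of the 3 control groups were at 0. Egln3 also passed the count filter only through cuprizone libraries, where it is high. Over both times the 18 control libraries held 10 counts in sum and the 19 cuprizone libraries 404. Its call is therefore no independent support for a rise. In WT at 12 weeks the 3 cuprizone libraries were at 19.2, 34.5 and 45.4 CPM and both control libraries at 0, which is at least 25.2-fold higher with a floor of 3 counts over the control group. In HET they were at 3.64, 11.5, 21.5 and 37.4 CPM against 0 in all 4 control libraries, at least 32.9-fold higher.

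Vegfa (ENSMUSG00000023951.17, chr17:46016993-46032369), the vascular growth factor, was at 0.924 to 7.82 CPM (median 2.87) in control and 2.59 to 95.9 CPM (median 25.0) in cuprizone libraries at 12 weeks. The 7 cuprizone libraries of WT and HET animals lay above every control library and the 3 of KO animals did not. The difference was 2.42 ± 0.62 (adjusted p = 0.014). It did not pass without WT control animal 1932 or 9145 (adjusted p = 0.0553 and 0.158) or without the 5 libraries that stood apart (2.30, adjusted p = 0.163). At 5 weeks the difference was 1.48 ± 0.57 (adjusted p = 0.219). Markers of oligodendrocyte precursors, summed over 7 of 7 genes, went from 18.4 ± 10.4 to 47.8 ± 20.8 CPM with cuprizone at 12 weeks, and Vegfa in the nonmicroglia fraction stood at 118 ± 38.4 CPM in the same animals on cuprizone. The part of other cells in the Vegfa tags was not tested. Bnip3 (ENSMUSG00000078566.8, chr7:138890836-138909519), which targets mitochondria for removal, rose by 1.65 ± 0.45 at 12 weeks (adjusted p = 0.0229), from 0.61 to 33.7 CPM (median 20.1) to 23.5 to 101 CPM (median 46.4), and differed by 0.37 ± 0.42 at 5 weeks. Its call at 12 weeks was lost when any of 5 animals was left out (HET 9469 on cuprizone, and KO 1744, KO 9467, WT 1932 and WT 9145 on control chow), with adjusted p up to 0.137, and without the 5 libraries that stood apart (adjusted p = 0.204). Other targets did not pass: P4ha1, a collagen prolyl hydroxylase, had a 95% interval of -0.53 to 0.12 at 12 weeks at levels of 194 to 516 CPM, and Adm, the vasodilator adrenomedullin, was at 0 in 22 of 37 libraries.

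HIF-1 binds the core motif ACGTG or GCGTG. It was searched on both strands in windows from 250 bases before to 50 bases after the RefSeq start sites on GRCm38.p6, using the most upstream start of each gene, where 2 overlapping matches (CACGTG, also an E-box) count separately. Of the 32 genes 31 had an entry and 23 of them held the motif, against 43.84% of all 27025 genes with an entry. Of the 9 genes that passed at 12 weeks 3 held it, and Slc2a5, Gpi1, Aldoa, Tpi1, Pkm and Vegfa did not in this window. The 250 bases before the start of those 3 are shown 5′ to 3′ because they are the members that moved with cuprizone and hold the motif, which is in capitals: Egln3 (chr12:54203875-54204124, minus strand), Bnip3 (chr7:138909507-138909756, minus strand) and Hif1a (chr12:73907617-73907866, plus strand).
Egln3: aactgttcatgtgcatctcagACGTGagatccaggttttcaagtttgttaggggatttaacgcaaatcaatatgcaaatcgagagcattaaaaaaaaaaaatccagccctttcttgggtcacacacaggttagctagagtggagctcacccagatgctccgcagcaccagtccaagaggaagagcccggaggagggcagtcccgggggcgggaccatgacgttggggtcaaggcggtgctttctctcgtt
Bnip3: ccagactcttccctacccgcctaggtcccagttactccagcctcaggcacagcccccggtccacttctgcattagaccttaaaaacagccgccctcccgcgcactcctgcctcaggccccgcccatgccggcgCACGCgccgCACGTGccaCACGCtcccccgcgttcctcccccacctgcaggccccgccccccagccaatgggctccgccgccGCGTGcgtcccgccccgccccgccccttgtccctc
Hif1a: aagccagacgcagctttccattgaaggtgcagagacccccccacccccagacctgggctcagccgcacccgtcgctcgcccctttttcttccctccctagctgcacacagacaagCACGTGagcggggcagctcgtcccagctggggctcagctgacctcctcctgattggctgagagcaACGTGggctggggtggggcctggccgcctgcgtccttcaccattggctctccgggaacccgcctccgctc
The Egln3 window held 1 match, 229 bases before the start. Bnip3 held 5, among them 1 palindrome CACGTG counted as 2, all within 117 bases of the start, and Hif1a held 3, of which 2 are the overlapping pair of 1 palindrome. A match is a run of letters and not a measured binding site.

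The diet effect was then compared between the 2 times. The change from 5 to 12 weeks in the diet effect passed for 0 of 32 genes, against 0.0071% of all genes tested, with 3 genes at an unadjusted p under 0.05 (5.52% of all genes) and 0 by DESeq2. The diet effects of Slc2a5, Hif1a, Pkm, Gpi1 and Tpi1 passed at both times.

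The genotypes were then taken one by one. In WT microglia 0 of 32 genes passed at 5 weeks (0.142% of all genes), 7 had an unadjusted p under 0.05 (6.82% of all genes) and DESeq2 called 0. At 12 weeks 2 passed, Slc2a5 and Gpi1 (0.958% of all genes), 0 or 1 when any of the 5 animals was left out, and 0 without the 1 library of these groups that stood apart. In HET microglia 2 passed at 5 weeks, Pkm and Gpi1 (0.277% of all genes), of which 0 were left without control animal 4352 and 1 gene passed without control animal 9546 or cuprizone animal 1106. At 12 weeks 6 passed, Slc2a5, Pkm, Tpi1, Egln3, Hif1a and Aldoa (2.55% of all genes). The filter limit given above for Egln3 applies to its call here too. In KO microglia 0 passed at 5 weeks (0.0568% of all genes) and 0 at 12 weeks (0.0284%). At an unadjusted p under 0.05 there were 4 (6.71% of all genes) and 3 (7.44%), and DESeq2 called 0 and 1, the latter being Hif1a (adjusted p = 0.0236) against 0.234% of all genes. The HET groups at 12 weeks had 4 animals each and the WT control group had 2. The part of group size in the number of calls was not tested.

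Hif1a on cuprizone at 12 weeks was at 236, 271 and 277 CPM in KO, at 209.9, 213 and 229 CPM in WT and at 143.02, 175, 216 and 239 CPM in HET. The differences from control chow were 1.33 ± 0.34 in KO, 1.13 ± 0.39 in WT and 1.18 ± 0.29 in HET, of which that of HET passed (adjusted p = 0.0117). Pkm in KO was at 68.8, 95.9 and 165 CPM on cuprizone and 12.4, 31.8 and 58.4 CPM on control chow at 12 weeks, a difference of 1.68 ± 0.45 (adjusted p = 0.258). All KO cuprizone libraries thus lay above all their own controls for both genes. The share of all genes that separate in this way with 3 animals per group was not computed. Neither gene passed in KO in edgeR.

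On cuprizone at 12 weeks Slc2a5, Vegfa and Egln3 were nearer to control levels in KO than in WT. The means of Tpi1 and Gpi1 went the same way. From control chow to cuprizone Tpi1 went from 14.8 to 21.1 CPM in KO and from 11.6 to 39.2 CPM in WT. Gpi1 went from 22.6 to 37.5 CPM in KO and from 3.35 to 48.9 CPM in WT. Hif1a did not, with 102 to 261 CPM in KO and 106 to 217 CPM in WT. For Slc2a5 the pattern did not hold at 5 weeks. Its means there were 380 CPM on cuprizone and 627 CPM on control chow in KO, and 308 and 453 CPM in WT. Slc2a5 on cuprizone at 12 weeks was at 291, 419 and 447 CPM in KO against 168, 193 and 194 CPM in WT and 67.2, 182, 183 and 202 CPM in HET, and the highest KO value, 446.6 CPM, lay just under the lowest of its own controls at 447.5, 524 and 525 CPM. Vegfa was at 2.59, 4.74 and 5.86 CPM in KO, at 28.6, 57.0 and 95.9 CPM in WT and at 20.02, 21.6, 28.4 and 35.6 CPM in HET, so that no KO value reached a value of the other genotypes. Egln3 was at 0, 0.732 and 5.33 CPM in KO at 12 weeks and at 0 in all 3 KO animals on cuprizone at 5 weeks. In WT on cuprizone at 5 weeks it was at 6.26, 10.8 and 12.9 CPM, which is at least 28.8-fold higher than in KO with a floor of 3 counts.

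**Figure D3:**
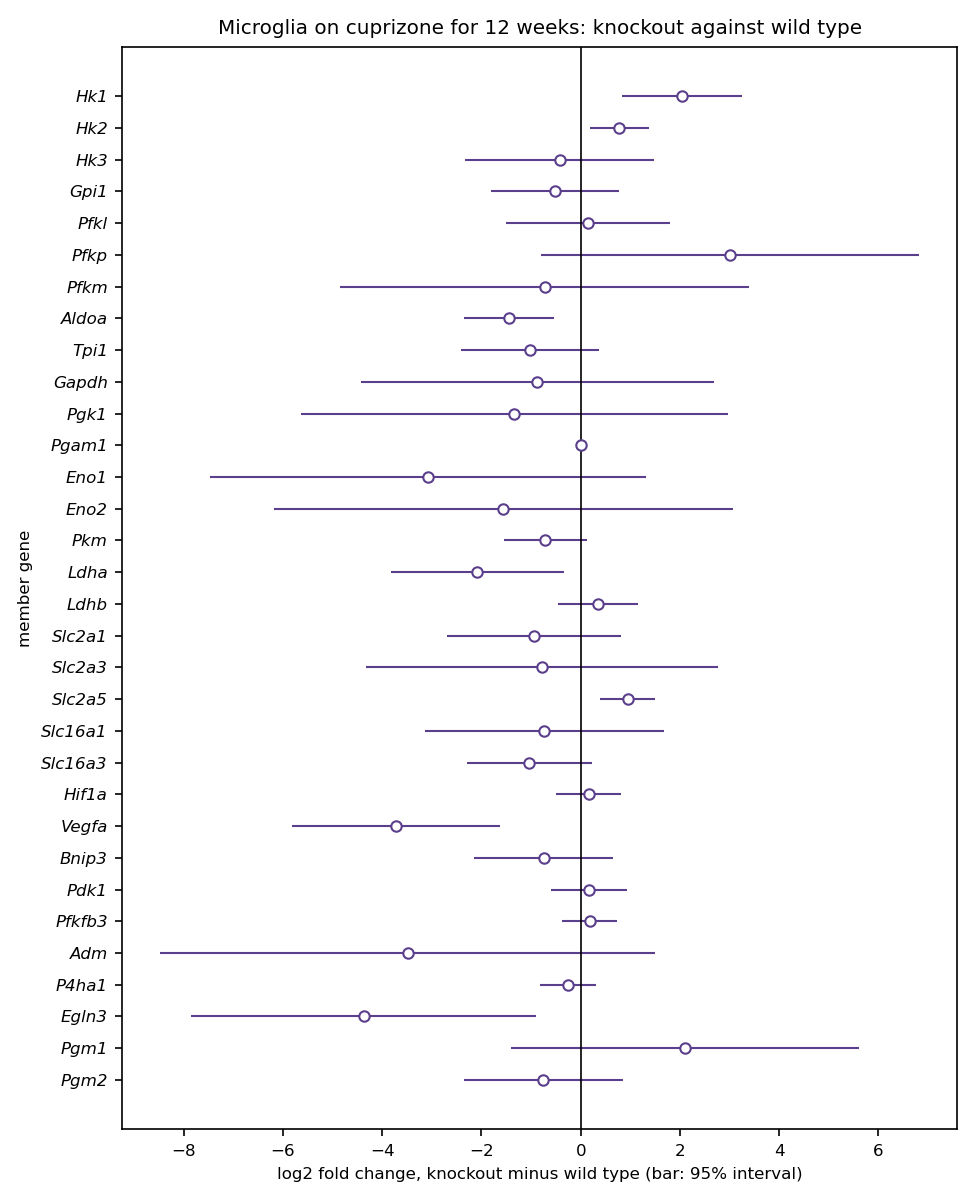
Log2 fold change of KO minus WT microglia on cuprizone at 12 weeks for the 32 genes, with the approximate 95% interval as a bar (none for Pgam1, whose standard error could not be derived). Vegfa, Aldoa, Egln3 and Ldha lie below 0 and Hk1, Hk2 and Slc2a5 above 0 with intervals that leave out 0, before adjustment over all genes.

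None of these genotype differences passed the test over all genes in edgeR. Of the 3 KO libraries on cuprizone at 12 weeks, those of animals 1748 and 981 stood apart on the first principal component. KO against WT on cuprizone gave 0 of 32 calls at 5 weeks (0.0781% of all genes) and 0 at 12 weeks (0.44%). At 12 weeks 7 genes had an unadjusted p under 0.05, against 9.85% of all genes. They were Vegfa (-3.73 ± 1.07, adjusted p = 0.107), Hk1 (2.03 ± 0.62, adjusted p = 0.147), Slc2a5 (0.94 ± 0.29, adjusted p = 0.147), Aldoa (-1.45 ± 0.47, adjusted p = 0.199), Hk2, Egln3 and Ldha. DESeq2's Wald test on the same genes called the first 3 (adjusted p = 0.00168, 0.0253 and 0.0424), against 1.25% of all genes. At 5 weeks 1 gene, Egln3, had an unadjusted p under 0.05 (5.14% of all genes), and DESeq2 called it (adjusted p = 0.0386, against 0.241% of all genes). Egln3 passed the count filter only through cuprizone libraries where it is high, and this KO group was at 0. The DESeq2 call is therefore no independent support for a genotype difference. Hk1 at 12 weeks stood at 33.2, 35.1 and 74.4 CPM in KO and at 5.76, 5.995 and 18.2 CPM in WT on cuprizone. Without the 5 libraries that stood apart, 1 KO animal was left, assumed to vary like the other groups. Ldha is not given for this fit. The differences of the other genes named were then -3.13 ± 1.63 for Vegfa, 1.55 ± 0.83 for Hk1, 0.91 ± 0.39 for Slc2a5, -0.77 ± 0.65 for Aldoa, -2.73 ± 2.45 for Egln3 and 0.14 ± 0.38 for Hk2. Of these Slc2a5 had an unadjusted p under 0.05 (0.0219, adjusted p = 0.737). Over all genes 5 were then higher and 15 lower, in place of 16 and 46. For comparison, Apoe, the lipid carrier that marks the disease-associated state, was lower in KO by 2.12 on the log2 scale at 12 weeks (SE 0.26, adjusted p = 3.1e-07).

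The difference between KO and WT in the diet effect itself was tested at each time. At 12 weeks the median of all genes in this contrast was -0.13 with TMM and -0.02 with DESeq2 size factors. It passed for 0 of 32 genes at 5 weeks (0.0071% of all genes) and at 12 weeks (0.0284%), with 3 and 5 genes at an unadjusted p under 0.05 (4.54 and 10.6% of all genes) and 0 calls by DESeq2. At 12 weeks those 5 were Gpi1 (-3.30 ± 1.10), Hk1 (2.55 ± 0.88), Slc2a5 (0.96 ± 0.42), Pfkp and Vegfa (-3.41 ± 1.60), with adjusted p from 0.235 to 0.444. That the diet effect passed in HET or WT and not in KO is therefore not shown to be a difference between genotypes. On control chow KO differed from WT in 0 of 32 genes (0.0142% of all genes), with 4 at an unadjusted p under 0.05 (5.25%) and 0 by DESeq2. HET differed from WT on cuprizone in 0 of 32 (0.0355%), with 1 at an unadjusted p under 0.05 (6.96%) and 0 by DESeq2.

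In the nonmicroglia fraction none of these genes passed the test of the diet. Averaged over genotypes, 0 of 30 genes passed at 5 weeks (0.443% of all genes) and 0 at 12 weeks (0.497%), with 2 and 1 at an unadjusted p under 0.05 (7.58 and 8.41% of all genes) and 0 by DESeq2. Vegfa, well measured there, was at 77.9 to 179 CPM on control chow and 70.0 to 189 CPM on cuprizone at 12 weeks, with a 95% interval of -0.44 to 0.37 for its difference. For Hif1a, Pkm and Aldoa the intervals were -0.36 to 0.61, -0.69 to 0.09 and -0.40 to 0.40, which leave out the differences estimated in microglia, but the difference between the fractions in the diet effect was not tested. Tpi1 went the other way than in microglia, with 35.8 ± 16.6 CPM on control chow and 18.4 ± 7.47 CPM on cuprizone and a difference of -0.92 ± 0.39 that did not pass (adjusted p = 0.437). P4ha1 at 5 weeks differed by -0.88 ± 0.27 (adjusted p = 0.219). The change between 5 and 12 weeks passed for 0 of 30 genes (0.00591% of all genes; unadjusted 1, against 4.23%), KO against WT on cuprizone for 0 of 30 (0% of all genes; unadjusted 3, against 4.15%) and the difference of their diet effects for 0 of 30 (0% of all genes; unadjusted 2, against 4.22%), and DESeq2 called 0 in each.

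**Figure D4:**
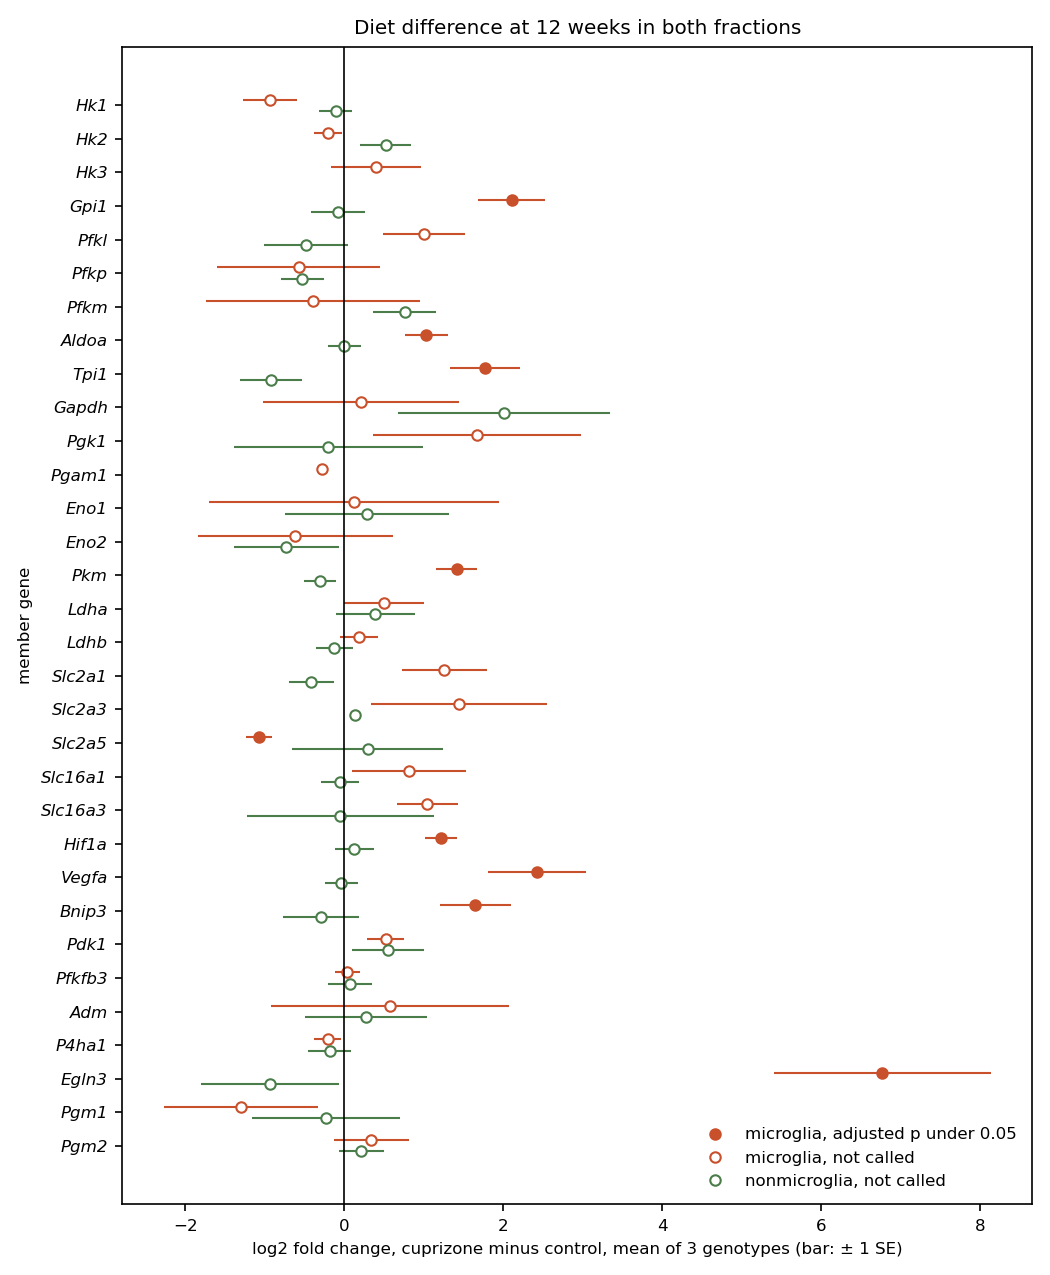
Log2 fold change of cuprizone minus control chow at 12 weeks, averaged over genotypes, with ± 1 SE (no bar for Pgam1 in microglia and Slc2a3 in the nonmicroglia fraction, where it could not be derived), in microglia (orange) and the nonmicroglia fraction (green), with filled points for an adjusted p under 0.05. All filled points are microglia, and the nonmicroglia points of the same 9 genes lie between -0.94 and 0.29.

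The 2 fractions were compared in the 18 animals on control chow. Of 31 genes tested 23 passed, 8 higher and 15 lower in microglia, against 59.8% of all genes, so that this share mostly says that the fractions differ. The median of the 31 genes was -1.02 on the log2 scale and that of all genes -0.23. Slc2a5 was at 373 to 795 CPM (median 485) in microglia and 2.12 to 9.56 CPM (median 4.44) in the other fraction, a difference of 6.96 ± 0.18 (adjusted p = 1.2e-40). Hk2 was at 988 to 2233 CPM (median 1629.9) against 19.6 to 63.5 CPM (median 35.02), a difference of 5.62 ± 0.17 (adjusted p = 2.29e-37). Hk3, Slc16a3, Pfkfb3, Pdk1, P4ha1 and Hif1a were higher in microglia as well, by 4.52, 3.78, 2.88, 1.93, 1.78 and 0.49. With DESeq2 size factors in place of TMM the median of all genes moved by a further -0.21, and Hif1a, at 0.27, no longer passed (adjusted p = 0.187). With the animal as a replicate block 22 genes passed, 21 of them among the 23, and Egln3 and Ldhb did not (adjusted p = 0.0932 and 0.064).

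Other genes of the set were lower in microglia. Vegfa was at 0.924 to 14.7 CPM (median 4.35) in microglia and 77.9 to 401 CPM (median 136) in the other fraction, a difference of -4.87 ± 0.25 (adjusted p = 2.01e-25). Slc2a1, the glucose carrier of the blood-brain barrier and of astrocytes, was lower in microglia by 3.20 on the log2 scale, Slc16a1 by 3.29, Pfkp by 4.34, Pfkm by 4.03, Eno2 by 3.90 and Hk1 by 1.21. Among the carriers and hexokinases named here, Slc2a5, Hk2, Hk3 and Slc16a3 were thus higher and Slc2a1, Hk1 and Slc16a1 lower in microglia. The 4 enzymes that rose with cuprizone in microglia were lower there on control chow, Gpi1 by 1.06, Aldoa by 1.02, Tpi1 by 1.499 and Pkm by 1.04.

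**Figure D5:**
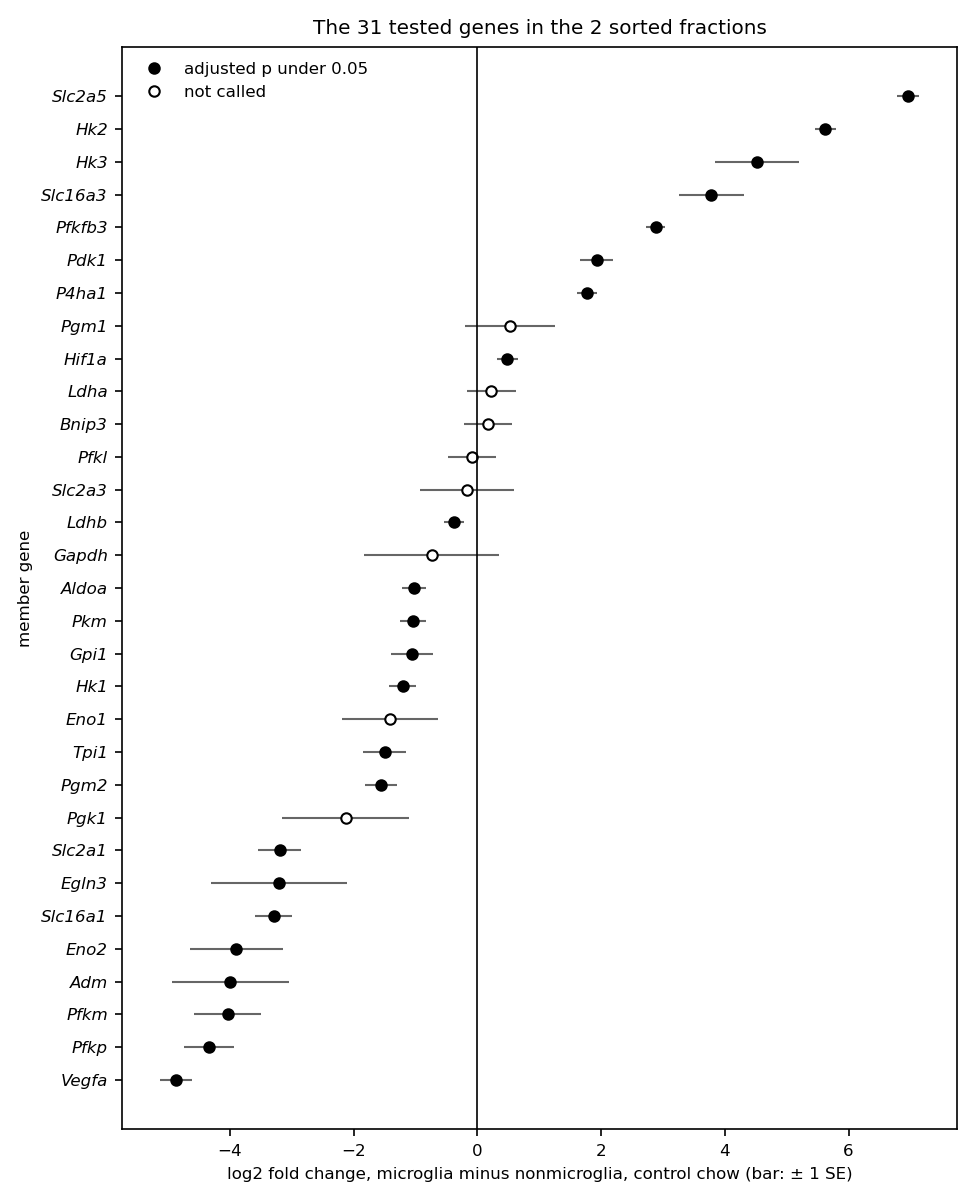
Log2 fold change of microglia minus nonmicroglia on control chow with ± 1 SE for the 31 genes tested, sorted, with filled points for an adjusted p under 0.05. Slc2a5 and Hk2 stand at the top, at 6.96 and 5.62, and Vegfa, Pfkp and Pfkm at the bottom, at -4.87, -4.34 and -4.03.

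Few genes of wider lists of the same biology, also chosen with earlier results of these data known, passed the test of the diet in microglia. Of 23 tested genes of other glycolytic and pyruvate-entry steps, 10 of the pentose phosphate pathway, 10 of glycogen metabolism and 9 of mTORC1 and Myc inputs, 0 passed in edgeR at 5 or 12 weeks in the mean over genotypes. In that order, 2, 0, 1 and 2 genes of these lists had an unadjusted p under 0.05 at 5 weeks and 3, 2, 2 and 1 at 12 weeks, and DESeq2 called 0, 0, 1 and 1 at 5 weeks and 0, 0, 1 and 0 at 12 weeks. Of all genes tested 11.7% had an unadjusted p under 0.05 at 5 weeks and 14.7% at 12 weeks, and DESeq2 called 2.43 and 4.37%. Of 33 tested genes among other HIF targets 1 rose at 5 weeks, Flt1, and 3 at 12 weeks, among them Flt1 and Mif, with 0 falling, against 1.6 and 2.95% of all genes called in either direction. Flt1, a receptor for VEGF that endothelium also expresses, rose by 2.17 ± 0.29 at 12 weeks (adjusted p = 5.21e-07) and Mif, a cytokine, by 2.48 ± 0.55 (adjusted p = 0.0029). Of 12 tested genes of the HIF pathway, Elob rose at 5 weeks by 0.95 ± 0.23 (adjusted p = 0.0112) and Vhl, which delivers the factor for destruction together with Elob, at 12 weeks by 0.90 ± 0.27 (adjusted p = 0.0499). Slc16a6, a monocarboxylate carrier of 10 tested in its list, fell by 0.71 at 5 weeks and by 0.73 at 12 weeks on the log2 scale (adjusted p = 0.00987 and 0.00424). Flt1 and Bhlhe40 were lower in KO than in WT on cuprizone at 12 weeks, by 2.71 and 5.26 on the log2 scale (adjusted p = 0.00113 and 0.0107), the only 2 of 33 HIF targets that passed there in edgeR, against 0.44% of all genes. DESeq2 called 3 of the 33, against 1.25%. Flt1 was at 26.5, 54.5 and 86.4 CPM in KO and at 284.02, 309.8 and 437.7 CPM in WT. Bhlhe40, a transcription factor gene, was at 0.647, 2.93 and 2.96 CPM in KO and at 44.5, 89.7 and 105 CPM in WT, so that the genotypes did not overlap for either gene. The KO libraries are those of animals 1748, 981 and 9542, of which the first 2 stood apart. Without the 5 libraries that stood apart neither gene passed, with differences of -2.30 for Flt1 and -4.67 for Bhlhe40 (adjusted p = 0.563 for both). The diet call of Vhl at 12 weeks and that of Flt1 at 5 weeks were lost as well (adjusted p = 0.52 and 0.0679). The KO values of Bhlhe40 rest on 1 to 5 counts per library.

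In the nonmicroglia fraction 3 of 35 tested HIF targets rose with cuprizone at 5 weeks and 1 at 12 weeks, against 0.443 and 0.497% of all genes called in either direction. Hmox1, which breaks down heme, was at 11.5 to 42.8 CPM on control chow and 57.1 to 127 CPM on cuprizone at 5 weeks, without overlap, and rose by 1.4996 ± 0.29 (adjusted p = 0.000808). Igfbp3, a binding protein of insulin-like growth factors, was at 0 in 5 of 9 control libraries and at 18.98 CPM at most, against 18.9 to 88.4 CPM on cuprizone at 5 weeks. It rose by 5.65 ± 0.92 at 5 weeks and by 4.05 ± 0.82 at 12 weeks (adjusted p = 0.000353 and 0.00737). Nfil3, a transcription factor gene, rose by 3.18 ± 0.82 at 5 weeks (adjusted p = 0.0494). Its control libraries there held 46 counts in sum (median 1.43 CPM) and its cuprizone libraries 374 (median 22.6 CPM). Of the 9 genes of mTORC1 and Myc inputs Eif4ebp1, a repressor of translation, rose at 5 weeks by 3.97 ± 0.98 (adjusted p = 0.0332). Its control libraries held 17 counts in sum (median 0.637 CPM) and its cuprizone libraries 244 (median 16.0 CPM). The fold changes of Igfbp3, Nfil3 and Eif4ebp1 rest on few control counts. Whether these genes passed the count filter only through cuprizone libraries was not tested. No gene of the other lists passed there in edgeR at either time. In other glycolytic and pyruvate-entry steps, pentose phosphate, glycogen, carriers and the HIF pathway, 3, 2, 1, 1 and 0 genes had an unadjusted p under 0.05 at 5 weeks (7.58% of all genes) and 4, 1, 0, 0 and 0 at 12 weeks (8.41%). DESeq2 called 2 pentose phosphate genes at 5 weeks and 0 others of these lists (0.875% of all genes), and 0 at 12 weeks (0.958%).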

How the data were processed

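RNA of sorted microglia and nonmicroglia cells of 37 mouse brains was sequenced by a 3' tag method (QuantSeq 3' FWD, low-input protocol, per the labels' protocols). The authors deposited raw counts per gene for all 74 libraries, as whole numbers. Per the submitters' processing notes the genome build was GRCm38.p6 and the tools included STAR, FastQC 0.11.5, R 3.4.3 and MultiQC. Not given in the sources used here are the counting program, the annotation, the strand setting and whether molecular identifiers were used, so counts may include PCR copies and reads of near copies or antisense genes, or lack reads that match several genes.

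Genes were filtered with filterByExpr (minimum count 10), scaled by TMM and tested with edgeR's quasi-likelihood test (edgeR 4.0.16, limma 3.58.1, R 4.3.3) with robust dispersion, 1 mean per group and a term for sex, separately in microglia (14087 genes), in the nonmicroglia fraction (16915) and across fractions on control chow (16560). Benjamini-Hochberg adjustment covered all genes tested, and each standard error was derived from the fold change and its F statistic. Within a fraction the p-values set differences against the spread between animals. Across fractions the main fit took the 2 libraries of an animal as independent. Alternatives were DESeq2 1.42.0 (adjusted p-values left as NA where it gave none), its size factors, no count filter, no sex term, leaving out each library, and the animal as a replicate block across fractions. That block rests on both fractions coming from the same animal. The deviations of the 2 libraries of an animal from their group means correlated at -0.02 to 0.038 (median 0.008, 18 animals, 16560 genes). Leaving out the 5 libraries apart on the first principal component was added after seeing the data. RIN, given for 21 microglia and 23 nonmicroglia libraries, entered no model. The tests were checked on simulated counts.

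Gene coordinates came from GENCODE M21 by Ensembl ID, promoter windows from RefSeq on GRCm38.p6, and near copies from blastn 2.17.0+ on transcript ends. The 32 genes and the wider lists were chosen with earlier results of these data known. Values in all libraries are given for genes that passed in at least 1 comparison, those with the smallest adjusted p first, and the others by range and counts. The values of 1 gene of the wider lists are not reported here.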

Additional observations from a re-analysis of the deposited data

Results flagged for a closer look

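In groups of 4 animals, 95 sets of values of 24 genes were examined for an animal far from the other 3, and 11 (11.58%) had one. The rule flags about 1 in 20 sets of normally distributed values. A set with 3 animals at 0 meets it whatever the other animal holds, so the share cannot be set against chance. All 11 groups are HET at 12 weeks, the groups of this size. In microglia on control chow animal 944 had 3.66 CPM of Eno2 (6 counts) and 21.9 CPM of Adm (36 counts), with the other 3 animals at 0 for both. Animal 943 had 63.0 CPM of Slc2a1, with the others at 5.55 to 13.5 CPM. In microglia on cuprizone animal 2476 had 8.49 CPM of Pfkp (14 counts). Animal 9469 had 563 CPM of Pfkfb3, with the others at 382 to 399.8 CPM, and 67.2 CPM of Slc2a5, with the others at 182 to 202 CPM. In the nonmicroglia fraction on control chow animal 943 had 4.88 CPM of Hk3 (9 counts) and animal 944 had 8.19 CPM of Slc16a3 (13 counts). On cuprizone animal 6296 had 47.9 CPM of Gpi1, and animal 9469 had 69.9 CPM of Bnip3 and 212 CPM of P4ha1. The cause was not tested.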

How the results depend on the processing

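No called difference changed direction under any alternative run. Of 24 diet differences called in microglia 12 passed in every fit, and of the 23 called between the fractions 20 did. The DESeq2 Wald test called more of the 32 genes than edgeR in 5 comparisons: 5 in place of 2 in HET at 5 weeks, 5 in place of 2 in WT at 12 weeks, 1 in place of 0 in KO at 12 weeks, and, in KO against WT on cuprizone, 1 in place of 0 at 5 weeks and 3 in place of 0 at 12 weeks. It called more of all 14087 genes too. In the same order these were 105 in place of 39, 262 in place of 135, 33 in place of 4, 34 in place of 11 and 176 in place of 62. Without the libraries that stood apart, an alternative chosen after seeing the data, WT at 12 weeks gave 0 calls in place of 2. When 1 animal at a time was left out, the number of calls ran from 0 to 2 in HET at 5 weeks, from 0 to 1 in WT at 12 weeks, from 5 to 6 in HET at 12 weeks, from 3 to 6 in the mean at 5 weeks and from 5 to 10 in the mean at 12 weeks. It ran from 0 to 1 for KO against WT on cuprizone at 12 weeks (1 without WT cuprizone animal 8043) and for the nonmicroglia diet mean at 12 weeks (1 without WT control animal 9145), and from 21 to 24 between the fractions. Where this left 1 WT control animal at 12 weeks, it was assumed to vary like the other groups. The animal as a replicate block gave 22 calls in place of 23 between the fractions. The cause of these shifts was not tested. Genes with a few counts per library (Gapdh, Pgk1, Pgam1, Eno1, Eno2, Adm) allow no statement on whether they changed. The same holds for Pfkp and Pfkm in microglia. Egln3 had a median of 1 count per microglia library, and its calls are no independent support for a change.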
